A study of Homo sapiens with 9 samples.

Results

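The 10 genes SQSTM1, NBR1, OPTN, MAP1LC3B, GABARAP, GABARAPL1, WIPI1, ULK1, TFEB and TFE3 encode receptors, membrane proteins and regulators of autophagy, and were taken by symbol from the 63241 genes of the deposited tables. Each symbol matched 1 human Ensembl gene ID, and 10 of 10 had enough counts to be tested among 14592 genes. RNA was measured by poly(A)-selected sequencing in 9 libraries of MEG-01, an established human line of megakaryoblasts that came from a patient's chronic myeloid leukaemia at its blast stage. There were 3 libraries of cells treated with As2S2 (arsenic disulfide), 3 of cells treated with PMA (phorbol 12-myristate 13-acetate, which switches on protein kinase C and is widely used to mature such cells) and 3 of untreated control cells, all of the same line; the study asks whether As2S2 promotes megakaryocyte differentiation. The labels give neither dose nor time, and do not say whether replicates are separate cultures, so each p-value rests on the scatter among these 9 libraries, part or all of which could be technical.

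Autophagy delivers cell material to the lysosome in vesicles with a double membrane. The kinase ULK1 starts the process, the phosphoinositide-binding protein WIPI1 sits on the forming membrane, and small ubiquitin-like proteins of the ATG8 family (MAP1LC3B, GABARAP, GABARAPL1) are attached to its lipids. The receptors SQSTM1 (p62), NBR1 and OPTN (optineurin) bind ubiquitin-marked cargo on one side and ATG8 proteins on the other. TFEB and TFE3 are transcription factors of the MiT/TFE family that switch on lysosome and autophagy genes when the kinase MTORC1 no longer holds them in the cytoplasm. That control acts on the proteins, and RNA levels do not report it, nor do they measure the flux of material through autophagy.

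Summed counts ran from 18.2 to 20.37 in units of 1e6 in the 9 libraries. Among pairs of replicates, the 4 that included As2S2 replicate 1 or control replicate 2 had a chi-square per gene of 12 to 15.2, and the 5 remaining pairs 2.42 to 3.46, so where leaving them out changes a call on the 10 genes the value is given. The summed TPM of 8 megakaryocyte markers was 205 to 245 with As2S2, 171 to 193 with PMA and 267 to 295 in control, and its members differed in direction. ITGA2B averaged 138 TPM with As2S2, 68.3 TPM with PMA and 190 TPM in control, whereas ITGB3 averaged 19.4, 51.5 and 11.7 TPM in the same groups, and GP9 0.73, 3.07 and 0.607 TPM. PF4 held 3 counts over all libraries. The summed TPM of 5 erythroid markers, nearly all HBG2, was 10183 to 11001 with As2S2, 34964 to 35866 with PMA and 7970 to 8406 in control. That of 5 monocyte markers, mostly the lysosome gene CD68, was 175 to 195, 293 to 317 and 163 to 172 in the same groups, with CD14 under 1 TPM in every group mean. Among 5 lymphoid markers MS4A1 was at 0 counts, and the sum was at most 2.19 TPM. The part of these differences in the results was not tested, and in bulk RNA fewer cells of a type and less RNA per cell cannot be told apart. Changes are given on CPM (counts per 1e6 counts of a library, its total scaled by TMM, a method that centres most genes on no change). Levels of different genes are compared on TPM (transcripts per 1e6, which takes account of length), as deposited. The 2 scales differ between groups: TMM factors computed on the TPM were 1.05 to 1.06 in As2S2 libraries, 0.823 to 0.88 in PMA libraries and 1.07 to 1.15 in control libraries. On TPM with no such scaling, the median log2 difference over all genes tested was -0.070 for As2S2 and -0.262 for PMA against control. The counting is not stated to use strand, and genes on the opposite strand overlap 8 of the 10 genes in GENCODE 29 (all but ULK1 and TFE3), so reads of such a partner cannot be told apart. A gene on the same strand overlaps each of GABARAP, WIPI1 and ULK1, and strand would not separate its reads. Estimated counts were whole, within 0.005, in all 9 libraries for OPTN, GABARAPL1, ULK1, TFEB and TFE3, in 1 library for SQSTM1 and in 0 libraries for NBR1, MAP1LC3B, GABARAP and WIPI1, whose reads may be shared with other genes and whose values are less certain.

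With As2S2, 8 of the 10 genes rose and 1 fell against control, on a background of 39.9% of all tested genes called, 20.3% upward and 19.6% downward (edgeR quasi-likelihood test, Benjamini-Hochberg adjusted p under 0.05). With PMA, 7 rose and 1 fell, on a background of 61.9% called, 30.8% upward and 31.1% downward. SQSTM1, OPTN, GABARAP, GABARAPL1, WIPI1 and ULK1 rose with each agent, and the comparisons share their control libraries. Under 21 alternative ways of running the test, the WIPI1 call with As2S2 was kept in 10 and the ULK1 call with PMA in 19. The median log2 fold change of the 10 genes was 0.63 with As2S2 and 0.54 with PMA, beside 0.00 for all genes tested in each. The CPM of treated and control libraries did not overlap for 10 of 10 genes with As2S2, where this held for 45.8% of all genes, and for 9 of 10 with PMA, where it held for 67.5%. An absolute log2 fold change of at least 1 was passed by SQSTM1 and GABARAPL1 with each agent, 2 of 10 genes, against 7.72% of all genes with As2S2 and 21% with PMA. As2S2 and PMA set against each other separated 4 of the 10 genes, on a background of 61.4%. With As2S2 replicate 1 and control replicate 2 omitted, 7 of the 10 passed. That omission also raised the calls over all genes against control. They went from 5821 of 14592 to 7489 of 14902 with As2S2, and from 9034 to 10076 with PMA. The share of all genes between As2S2 and PMA under this omission is not given here, so the 7 has no background. In the fit of all libraries ULK1 and TFE3 were higher with As2S2, and NBR1 and WIPI1 were lower with As2S2. CPM did not overlap for 6 of 10 genes, against 67.2% of all genes, and 0 of 10 differed by a log2 of at least 1, against 20.7%.

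The balance of directions depends on the scale. On TPM with no further scaling 7 genes were called higher and 1 lower with As2S2 (all genes 1685 higher and 3066 lower, against 2962 and 2859 on counts), and 5 higher and 3 lower with PMA (all genes 1971 and 6984, against 4494 and 4540). Between As2S2 and PMA 8 were higher and 0 lower (all genes 5968 and 2320, against 4503 and 4463). With PMA the TPM values were smaller than those on counts for the 7 genes that rose on counts, at 0.87 for SQSTM1, 0.44 for OPTN, 0.25 for GABARAP, 0.57 for GABARAPL1 and 0.31 for WIPI1 (each past the threshold in limma), 0.02 for ULK1 (adjusted p = 0.913) and -0.20 for MAP1LC3B (adjusted p = 0.0165), and TFE3 was at -0.81. On TMM-scaled TPM, an alternative chosen after seeing the data, the same 7 genes were at 1.28, 0.82, 0.65, 0.97, 0.68, 0.30 and 0.21, and TFE3 at -0.44.

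**Figure D1:**
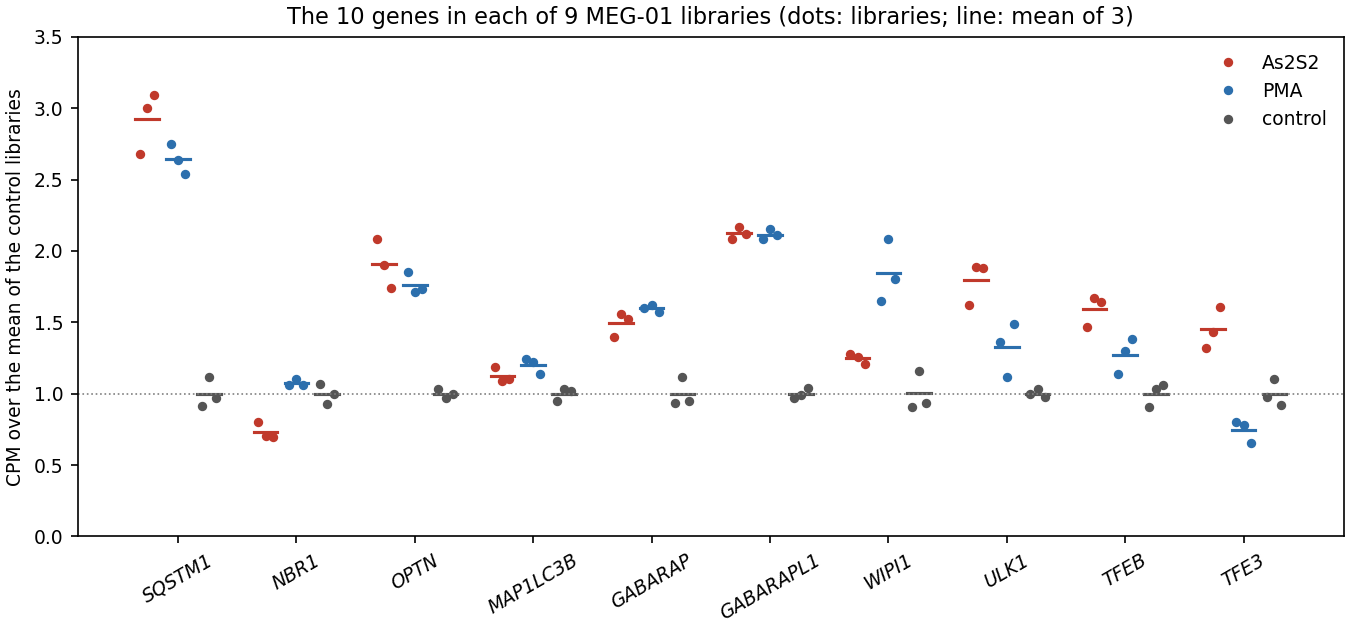
CPM of each gene in every library, divided by the mean of the 3 control libraries, for As2S2, PMA and control from left to right; dots are libraries, short lines are means of 3, and the dotted line marks 1. SQSTM1 stands above 2 in all treated libraries, NBR1 lies below 1 in the As2S2 libraries, and TFE3 lies above 1 with As2S2 and below 1 with PMA.

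**Figure D2:**
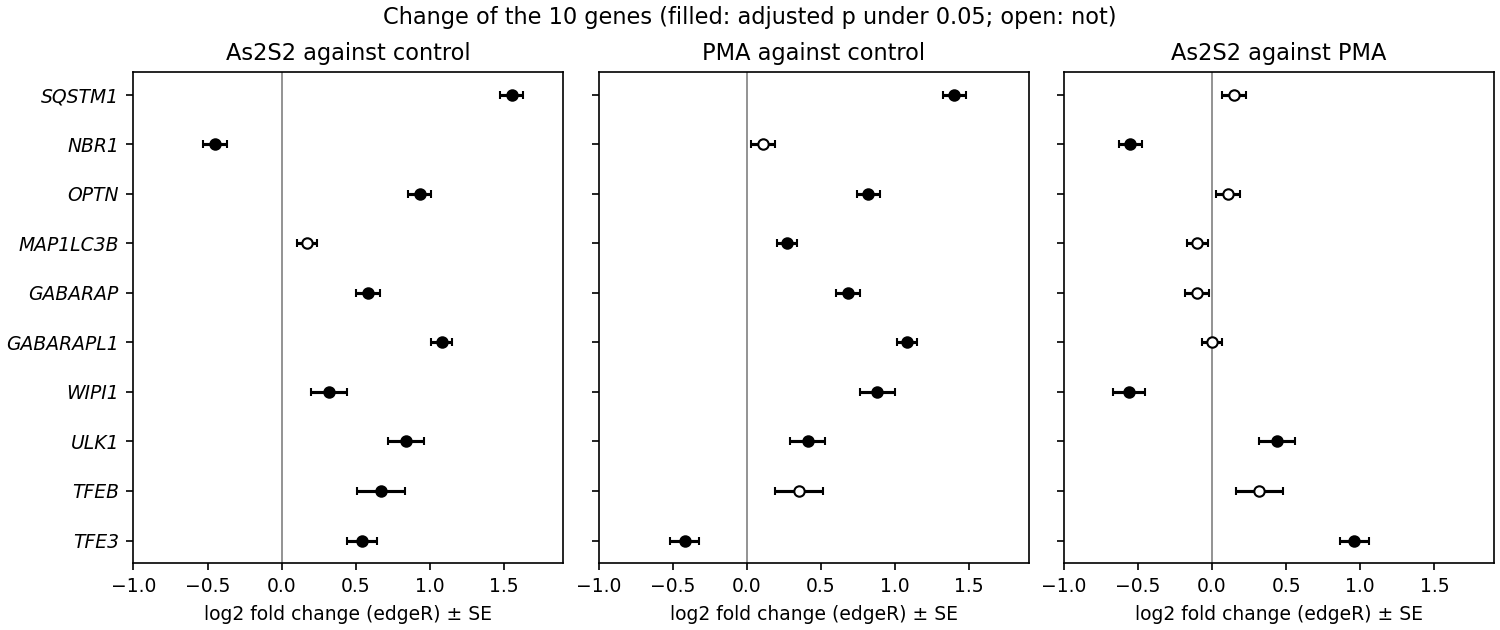
Log2 fold change with its SE from the fit of all 9 libraries, for As2S2 against control, PMA against control and As2S2 against PMA. Filled points passed an adjusted p of 0.05; 9, 8 and 4 of the 10 points are filled in the panels from left to right.

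Per length, GABARAP was the most abundant of the 10 RNAs in every group, at 296 TPM with As2S2, 250 TPM with PMA and 211 TPM in control, and TFEB the least, at 2.18, 1.37 and 1.53 TPM in the same groups. SQSTM1 stood second, at 164 TPM with As2S2, 115 TPM with PMA and 62.2 TPM in control. In control cells its range overlapped that of MAP1LC3B (61.1 TPM), whereas in each treated group it lay clear of it. NBR1 and GABARAPL1 also overlapped in control, at 22.1 and 20.9 TPM. All other neighbours in the order had ranges that did not touch. NBR1 ranked 7 of the 10 with As2S2, 6 with PMA and 4 in control.

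Start-site windows of RefSeq (GRCh38.p14, 250 bases before to 50 after a start, 16 windows) were found for 10 of 10 genes and searched on both strands for the E-box core CACGTG and its longer CLEAR form TCACGTGA, which TFEB and TFE3 bind, the core of the antioxidant response element TGACNNNGC, which NRF2 binds, the AP-1 site TGANTCA and the cAMP response element TGACGTCA. The motifs were chosen after the windows had been looked at. TCACGTGA always holds CACGTG, and an AP-1 site can overlap the antioxidant element. The E-box core was in 0 of the 16 windows, as was the CLEAR form, and they are in 7.26% and 0.98% of all 35116 windows. MAP1LC3B held an antioxidant core (13.3% of all windows), TFE3 an AP-1 site (7.71%) and GABARAPL1 a cAMP element (1.85%), each in 1 window. These 3 windows are shown with the match in capitals, and that of SQSTM1, which had the largest change of the 10 genes and no match in 3 windows, is shown beside them for the most downstream of its 3 starts.
SQSTM1, chr5:179820655-179820954, plus strand: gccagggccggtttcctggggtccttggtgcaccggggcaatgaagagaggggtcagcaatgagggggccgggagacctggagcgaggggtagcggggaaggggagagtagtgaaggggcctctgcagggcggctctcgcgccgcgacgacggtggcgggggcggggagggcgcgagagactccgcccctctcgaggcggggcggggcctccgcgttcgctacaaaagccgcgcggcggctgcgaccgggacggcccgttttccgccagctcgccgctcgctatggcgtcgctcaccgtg
MAP1LC3B, chr16:87392086-87392385, plus strand: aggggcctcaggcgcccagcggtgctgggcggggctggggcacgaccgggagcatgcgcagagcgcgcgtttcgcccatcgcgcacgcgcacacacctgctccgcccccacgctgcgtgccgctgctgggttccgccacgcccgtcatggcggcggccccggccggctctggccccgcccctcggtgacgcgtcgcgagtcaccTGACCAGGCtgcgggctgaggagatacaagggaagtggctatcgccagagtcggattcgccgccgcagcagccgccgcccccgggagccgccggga
GABARAPL1, chr12:10212627-10212926, plus strand: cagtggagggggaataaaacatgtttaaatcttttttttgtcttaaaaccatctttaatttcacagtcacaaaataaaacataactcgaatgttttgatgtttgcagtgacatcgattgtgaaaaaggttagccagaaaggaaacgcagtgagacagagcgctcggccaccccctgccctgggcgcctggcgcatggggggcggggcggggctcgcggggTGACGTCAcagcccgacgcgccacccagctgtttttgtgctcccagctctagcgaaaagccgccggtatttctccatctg
TFE3, chrX:49043308-49043607, minus strand: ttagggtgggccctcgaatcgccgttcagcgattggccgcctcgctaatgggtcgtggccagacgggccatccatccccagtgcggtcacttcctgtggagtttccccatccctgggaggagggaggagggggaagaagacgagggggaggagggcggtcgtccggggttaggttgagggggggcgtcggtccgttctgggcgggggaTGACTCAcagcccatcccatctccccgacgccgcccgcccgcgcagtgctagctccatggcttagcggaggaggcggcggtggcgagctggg
The match starts 46 bases before the start site in MAP1LC3B, 30 before it in GABARAPL1 and 42 before it in TFE3. A match describes these letters and shows no binding, and the search says nothing of sites outside the windows.

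SQSTM1 (ENSG00000161011), the receptor that gathers ubiquitin-marked protein and also binds KEAP1, the inhibitor of NRF2, was at 480, 538 and 553 CPM in As2S2 replicates 1, 2 and 3, against 163, 201 and 173 CPM in control replicates. All As2S2 libraries lay above all controls. The log2 fold change was 1.55 ± 0.08 (SE, adjusted p = 1.26e-09), or 2.92-fold, and 96.8% of tested genes changed less in size. PMA libraries held 492, 472 and 456 CPM, a log2 fold change of 1.40 ± 0.08 against control (adjusted p = 4.21e-10). As2S2 and PMA libraries overlapped, and the difference of 0.15 did not pass (adjusted p = 0.128, 95% interval -0.02 to 0.32). Leaving out As2S2 replicate 1 (0.22, adjusted p = 0.0223), control replicate 2 (0.16, 0.0359) or the pair of them (0.21, 6.39e-05) brought it past the threshold. It also passed with no filter on low counts (0.18, adjusted p = 0.0473), on TPM (0.51, 4.34e-05) and on TMM-scaled TPM (0.19, 0.0485).

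NBR1 (ENSG00000188554), a receptor built like SQSTM1 that binds the same cargo, went the other way with As2S2. It stood at 92.4, 80.8 and 80.5 CPM in As2S2 libraries, against 124, 107 and 115 CPM in control libraries, with no overlap. The log2 fold change was -0.45 ± 0.08 (adjusted p = 2.84e-04). PMA libraries held 122, 127 and 123 CPM, which overlapped control, and the value of 0.11 ± 0.08 did not pass (adjusted p = 0.244). On TPM with no further scaling it was -0.36 and passed in that direction (adjusted p = 0.00587). With As2S2 the RNA was lower than with PMA by a log2 difference of -0.55 ± 0.08 (adjusted p = 1.34e-05), though on TPM that call was lost (-0.15, adjusted p = 0.192). SQSTM1 and NBR1 were the pair of the 10 genes whose centred log2 CPM differed most, by a root mean square of 0.842 over the 9 libraries. Their TPM ratio was 10.8 ± 1.16 with As2S2, 6.77 ± 0.4 with PMA and 2.85 ± 0.45 in control (SD, n = 3 each).

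OPTN (ENSG00000123240), a receptor for damaged mitochondria and bacteria that the kinase TBK1 activates, was at 109, 99.4 and 91.2 CPM with As2S2, against 53.8, 50.7 and 52.3 CPM in control. It rose by 0.93 ± 0.08 on the log2 scale (adjusted p = 2.24e-07). With PMA it was at 96.5, 89.5 and 90.6 CPM, a rise of 0.82 ± 0.08 (adjusted p = 1.80e-07). The treated groups overlapped and their difference of 0.11 did not pass (adjusted p = 0.213, 95% interval -0.05 to 0.28), though it did on TPM (0.27, adjusted p = 0.0273), and it was -0.04 on TMM-scaled TPM (adjusted p = 0.699).

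Among ubiquitin-binding receptors (SQSTM1, NBR1, OPTN, CALCOCO2 and TAX1BP1, a family put together after the values were seen), SQSTM1 took 69.3 ± 3.41% of the summed TPM with As2S2, 66.3 ± 0.614% with PMA and 46.2 ± 4.29% in control (SD, n = 3 each). A share within a library does not depend on how libraries are scaled. The share of NBR1 was 6.44 ± 0.443% with As2S2, 9.82 ± 0.521% with PMA and 16.3 ± 1.05% in control. That of CALCOCO2 (NDP52, a receptor for bacteria and mitochondria) was 8.67 ± 1.1%, 8.68 ± 0.542% and 18.6 ± 2.46% in the same groups. A share also depends on the other genes of the family. On counts CALCOCO2 itself did not pass with As2S2 (-0.14 ± 0.09, adjusted p = 0.242) or PMA (-0.20 ± 0.09, adjusted p = 0.0685), and its CPM overlapped control. OPTN kept similar shares, at 11.8 ± 1.41%, 13.3 ± 0.865% and 12.4 ± 0.29%, with overlapping libraries. With 3 libraries against 3, the smallest two-sided p of an exact permutation test of a single share is 0.1, so no test of the shares is given.

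**Figure D3:**
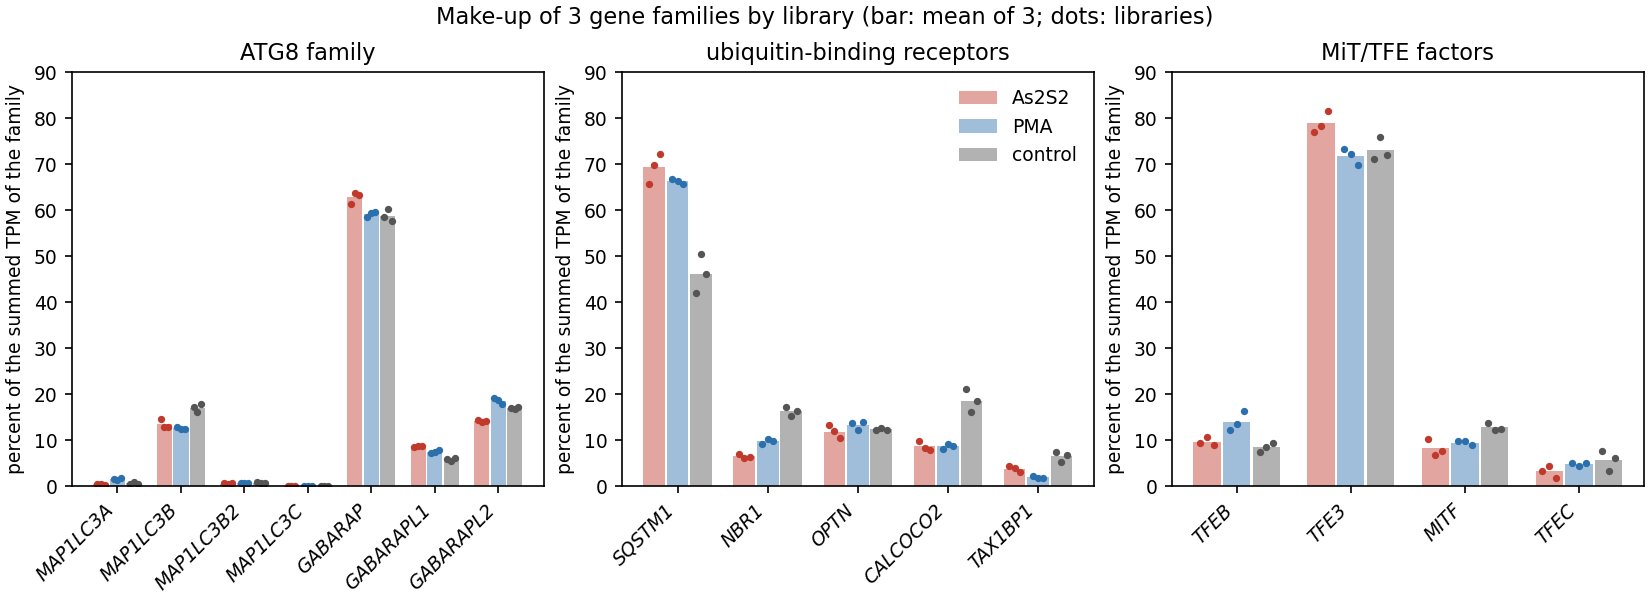
Share of each gene in the summed TPM of its family, in percent, for the ATG8 family, the ubiquitin-binding receptors and the MiT/TFE factors; bars are means of 3 libraries and dots are libraries, in the order As2S2, PMA, control. SQSTM1 makes up 65.6% to 72.3% of the receptor RNA with As2S2, 65.6% to 66.8% with PMA and 41.9% to 50.5% in control, while GABARAP stays the main ATG8 RNA in all 9 libraries.

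The ATG8 genes split by size of change. GABARAPL1 (ENSG00000139112), an ATG8 protein of the GABARAP branch, was at 85.2, 88.9 and 87.1 CPM with As2S2 and 85.3, 88.4 and 86.8 CPM with PMA, against 39.7, 40.8 and 42.7 CPM in control. The treated groups overlapped, and all their libraries lay above every control. The log2 fold change was 1.08 ± 0.07 with As2S2 (adjusted p = 1.25e-08) and 1.08 ± 0.07 with PMA (adjusted p = 1.71e-09). The treated groups differed by 0.00 (adjusted p = 0.964, 95% interval -0.14 to 0.15), though on TPM the difference was 0.35 (adjusted p = 0.00123). Its start-site window, printed above, holds the cAMP element.

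GABARAP (ENSG00000170296), the founding member of that branch, was at 302, 337 and 328 CPM with As2S2 and 345, 348 and 339 CPM with PMA, against 201, 241 and 203 CPM in control. It rose by 0.58 ± 0.08 with As2S2 (adjusted p = 2.08e-05) and by 0.68 ± 0.08 with PMA (adjusted p = 1.11e-06). Every As2S2 library lay below every PMA library in CPM, but the difference of -0.10 did not pass (adjusted p = 0.293, 95% interval -0.26 to 0.07), and on TPM it was 0.24 and passed (adjusted p = 0.00241).

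MAP1LC3B (ENSG00000140941), whose protein LC3B is the usual marker of autophagosomes, had the smallest value with As2S2. It was at 168, 154 and 156 CPM with As2S2 and 176, 173 and 162 CPM with PMA, against 134, 146 and 144 CPM in control. All treated libraries lay above every control in CPM, and the treated groups overlapped each other. The As2S2 value of 0.17 ± 0.07 did not pass (adjusted p = 0.0617), though it passed when control replicate 2 was left out (0.19, adjusted p = 0.0355), when As2S2 replicate 1 was omitted too (0.15, 0.0158), with DESeq2 (0.16, 0.0447) and with a stricter filter on low counts (0.18, 0.0404). With PMA it rose by 0.27 ± 0.07 (adjusted p = 0.00312), but on TPM with no further scaling it was lower, at -0.20 (adjusted p = 0.0165), and on TMM-scaled TPM it was 0.21 (adjusted p = 0.0149). As2S2 and PMA differed by -0.10, which did not pass (adjusted p = 0.236, 95% interval -0.24 to 0.05), and by 0.24 on TPM (adjusted p = 0.00672). With As2S2 replicate 1 and control replicate 2 omitted the difference was -0.13 and passed (adjusted p = 0.0184).

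As a share of the summed TPM of the 7 ATG8 genes, MAP1LC3B took 13.4 ± 0.978% with As2S2, 12.6 ± 0.244% with PMA and 17 ± 0.926% in control, with no overlap between treated and control libraries. GABARAPL1 took 8.63 ± 0.0266%, 7.47 ± 0.287% and 5.84 ± 0.431% in the same groups, also without overlap. GABARAP took 62.9 ± 1.26%, 59.1 ± 0.444% and 58.8 ± 1.36%. Of the other ATG8 genes GABARAPL2 rose by 0.26 ± 0.08 with As2S2 (adjusted p = 0.013, lost on TPM at 0.0549) and by 0.85 ± 0.08 with PMA (adjusted p = 9.92e-08). MAP1LC3A rose with PMA by 2.02 ± 0.23 (adjusted p = 1.05e-06), at 398 summed counts with PMA and 118 in control, and took 1.51 ± 0.161% of the family TPM with PMA. MAP1LC3B2 is a close copy of MAP1LC3B and could share its reads.

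ULK1 (ENSG00000177169), the kinase that starts autophagy and is itself held off by MTORC1, was at 19.6, 22.8 and 22.6 CPM with As2S2 and 16.4, 13.5 and 18 CPM with PMA, against 12, 12.4 and 11.8 CPM in control. The 3 groups did not overlap. It rose by 0.84 ± 0.12 with As2S2 (adjusted p = 3.33e-05) and by 0.41 ± 0.12 with PMA (adjusted p = 0.00729), and As2S2 stood above PMA by 0.44 ± 0.12 (adjusted p = 0.00369). The PMA call was lost without PMA replicate 3 (0.31, adjusted p = 0.0563) and on TPM (0.02, adjusted p = 0.913).

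WIPI1 (ENSG00000070540), which reads the lipid made by the class III PI3-kinase, was at 19, 18.8 and 18.1 CPM with As2S2 and 24.6, 31 and 26.8 CPM with PMA, against 13.5, 17.2 and 14 CPM in control. The PMA libraries were highest, the As2S2 libraries lay between, and control replicate 2 came nearest to them. With PMA it rose by 0.88 ± 0.12 (adjusted p = 5.41e-06), and As2S2 stood below PMA by a log2 difference of -0.56 ± 0.11 (adjusted p = 4.75e-04). That last call was lost on TPM (-0.10, adjusted p = 0.49). With As2S2 it rose by 0.32 ± 0.12 (adjusted p = 0.0366). That adjusted p missed the threshold when any of As2S2 replicates 1, 2 and 3 was left out (0.0655, 0.0828 and 0.0621), or PMA replicate 3 (0.0501), control replicate 1 (0.129) or control replicate 3 (0.128). It missed it as well with DESeq2 (0.0507), with only the groups compared in the fit (0.0683), on TPM (0.213) and on TMM-scaled TPM (0.131). Without control replicate 2 the log2 fold change was 0.44 (adjusted p = 0.00419).

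TFE3 (ENSG00000068323) was the gene of the 10 that rose with one agent and fell with the other. It was at 64.8, 70.1 and 78.9 CPM with As2S2 and 39.2, 38.3 and 32.3 CPM with PMA, against 47.9, 54.2 and 45.2 CPM in control. All As2S2 libraries were above and all PMA libraries below every control. It rose by 0.54 ± 0.10 with As2S2 (adjusted p = 4.79e-04), changed by -0.42 ± 0.10 with PMA (adjusted p = 0.00185), and stood higher with As2S2 than with PMA by 0.96 ± 0.10 (adjusted p = 5.70e-07). These 3 calls kept their direction and passed in the 21 alternatives run on single genes, but none of these 3 values reaches an absolute log2 fold change of 1. Its start-site window holds the AP-1 site printed above.

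TFEB (ENSG00000112561) was low. Its estimated counts were 98, 115 and 109 with As2S2 and 64, 78 and 89 with PMA, against 68, 69 and 83 in control, or 5.11, 5.79 and 5.7 CPM, 3.95, 4.51 and 4.79 CPM, and 3.14, 3.57 and 3.69 CPM. In CPM the 3 groups did not overlap. It rose by 0.67 ± 0.16 with As2S2 (adjusted p = 0.00268), and by 0.33 on TPM (adjusted p = 0.0319), where a pseudocount of 1 understates the change of low genes. The PMA value of 0.35 ± 0.16 did not pass (adjusted p = 0.0694) and was -0.10 on TPM (adjusted p = 0.437). The treated groups differed by 0.32 ± 0.16, which did not pass (adjusted p = 0.0816, 95% interval -0.01 to 0.65). That difference passed with As2S2 replicate 1 and control replicate 2 omitted (0.39, adjusted p = 0.0485) and on TPM (0.42, adjusted p = 0.00489).

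TFE3 made up most of the MiT/TFE RNA, 79 ± 2.26% of the summed TPM of TFEB, TFE3, MITF and TFEC with As2S2, 71.8 ± 1.75% with PMA and 73 ± 2.58% in control. The summed TPM, as deposited, was 22.6 ± 1.52 with As2S2, 9.88 ± 0.258 with PMA and 18.1 ± 0.616 in control. These sums are not centred on the typical gene, whose median log2 difference on this scale was -0.262 with PMA against control. On counts the PMA change of TFE3 was -0.42. MITF, the family member best known from pigment cells and osteoclasts, fell by 0.64 on the log2 scale with PMA (SE 0.15, adjusted p = 0.00145), and did not pass with As2S2 (-0.12 ± 0.14, adjusted p = 0.542).

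Other genes of the pathway were taken as 97 genes in 11 lists, of which 93 were tested. With As2S2, 36 rose and 10 fell, with a median of 0.16, on the background of 39.9%. With PMA, 48 rose and 19 fell, with a median of 0.28, on the background of 61.9%. On TPM with no further scaling, the As2S2 split was 22 up and 12 down and the PMA split 18 up and 34 down, so the direction of the PMA balance differs between scales. In the direct comparison 30 were higher and 33 lower with As2S2 than with PMA, on the background of 61.4% (47 higher and 17 lower on TPM). RETREG1, MAP1LC3C, ATG9B and SGSH had too few counts to be tested.

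**Figure D4:**
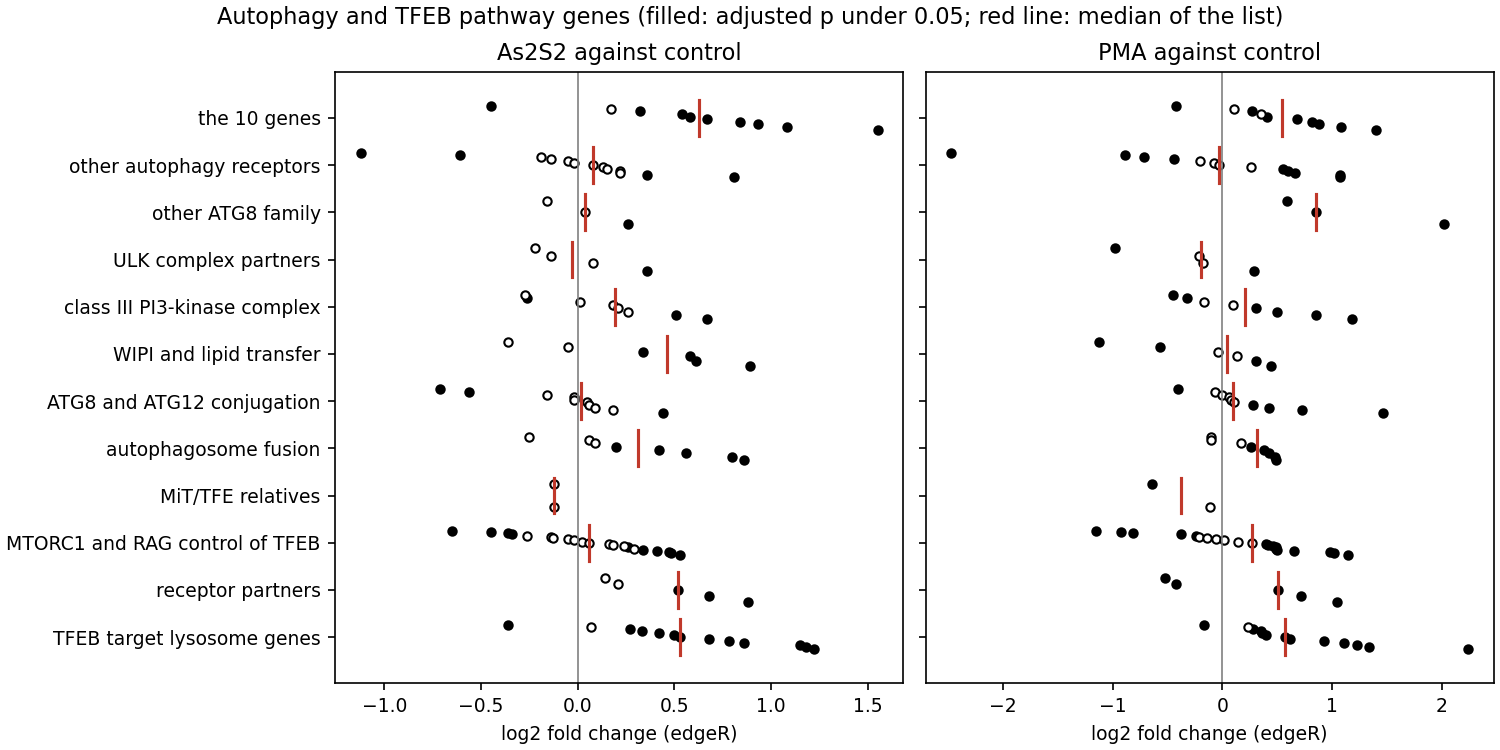
Log2 fold change of each tested gene in the 10 genes and the 11 lists, for As2S2 and PMA against control on axes of different span; filled points passed an adjusted p of 0.05 and red lines are list medians. The 10 genes have a median of 0.63 with As2S2 and 0.54 with PMA, and the TFEB target lysosome genes 0.53 and 0.57, while the other autophagy receptors have 0.08 and -0.03.

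Of 13 other tested receptors, 2 rose and 2 fell with As2S2 (median 0.08), and 5 rose and 4 fell with PMA (median -0.03). The background was 39.9% of all genes called with As2S2 and 61.9% with PMA. CCPG1, a receptor for the endoplasmic reticulum, fell by 1.12 ± 0.15 with As2S2 (adjusted p = 1.96e-05) and by 2.47 ± 0.16 with PMA (adjusted p = 1.34e-09), from the same control libraries. TEX264, another such receptor, fell by 0.61 ± 0.13 with As2S2 (adjusted p = 0.00148). NCOA4, the receptor for ferritin, rose by 1.07 ± 0.12 with PMA (adjusted p = 1.15e-06), and FUNDC1, a receptor on mitochondria, was lower with As2S2 than with PMA by a log2 difference of -1.09 ± 0.13 (adjusted p = 1.46e-06).

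The list for the ULK complex held 4 other genes, the related kinase gene ULK2 and ATG13, RB1CC1 and ATG101. ATG13 rose with As2S2 (0.36 ± 0.08, adjusted p = 0.00238, lost on TPM at 0.114). The scaffold RB1CC1 changed by -0.98 ± 0.15 with PMA (adjusted p = 3.69e-05). In the class III PI3-kinase complex ATG14, the subunit that directs it to autophagy, rose by 0.67 ± 0.12 with As2S2 (adjusted p = 3.32e-04) and by 1.18 ± 0.12 with PMA (adjusted p = 2.61e-07). BECN1 rose with PMA by 0.50 ± 0.08 (adjusted p = 2.56e-05, lost on TPM at 0.493). Of 6 tested genes for WIPI proteins and lipid transfer, 4 rose and 0 fell with As2S2, while 2 rose and 2 fell with PMA. The background was 39.9% of all genes called with As2S2 and 61.9% with PMA. The scramblase gene ATG9A fell by 0.57 ± 0.09 with PMA (adjusted p = 2.43e-05) and was higher with As2S2 than with PMA by 1.15 ± 0.09 (adjusted p = 8.95e-09). The lipid transfer gene ATG2A rose by 0.89 ± 0.10 with As2S2 (adjusted p = 7.17e-06), and WIPI2, the closest relative of WIPI1, rose by 0.61 ± 0.07 (adjusted p = 1.06e-05).

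Of 10 genes that conjugate ATG8 and ATG12, 1 rose and 2 fell with As2S2, and 4 rose and 1 fell with PMA. The share of all genes called was 39.9% with As2S2 and 61.9% with PMA. The protease gene ATG4A, which trims ATG8 proteins, rose by 1.47 ± 0.16 with PMA (adjusted p = 5.55e-07), and its relative ATG4C fell by 0.71 ± 0.16 with As2S2 (adjusted p = 0.0021). Of 8 fusion genes 5 rose and 0 fell with each agent, which with PMA is near the 61.9% of all genes called. The share of all genes called upward was 20.3% with As2S2 and 30.8% with PMA. PLEKHM1, an adaptor that tethers lysosomes, rose by 0.86 ± 0.09 with As2S2 (adjusted p = 1.83e-06), and the fusion protein gene VAMP8 by 0.56 ± 0.07 (adjusted p = 8.42e-06). The PMA value of VAMP8 was 0.49 ± 0.07 (adjusted p = 9.78e-06), and 0.01 on TPM (adjusted p = 0.923). SNAP29, YKT6 and RAB7A, which also rose with PMA on counts, averaged 12.2, 24.4 and 80.4 TPM with PMA. In control these genes were higher, at 14.6, 28.5 and 86 TPM. PLEKHM1 averaged 6.87 TPM with PMA and 6.51 TPM in control.

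Of 21 genes for MTORC1 and the RAG control of TFEB, 6 rose and 4 fell with As2S2 (median 0.06). With PMA, 10 rose and 5 fell (median 0.27). The background was 39.9% of all genes called with As2S2 and 61.9% with PMA. LAMTOR5, of the complex that anchors RAG proteins to lysosomes, rose by 0.53 ± 0.07 with As2S2 (adjusted p = 1.17e-05) and by 1.02 ± 0.07 with PMA (adjusted p = 1.40e-09). RPTOR, which recruits substrates to MTORC1, changed by -0.92 ± 0.09 with PMA (adjusted p = 2.93e-07). TSC2, an inhibitor of MTORC1, was higher with As2S2 than with PMA by 0.99 ± 0.10 (adjusted p = 4.49e-07). Among receptor partners the polyubiquitin gene UBB rose by 0.68 ± 0.07 with As2S2 (adjusted p = 1.50e-06) and by 0.72 ± 0.07 with PMA (adjusted p = 1.70e-07). KEAP1 was higher with As2S2 than with PMA by 0.56 ± 0.09 (adjusted p = 5.10e-05).

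Of 13 tested lysosome genes known as TFEB targets, 11 rose and 1 fell with As2S2 (median 0.53), and 11 rose and 1 fell with PMA (median 0.57). The background was 39.9% of all genes called with As2S2, 20.3% upward, and 61.9% with PMA, 30.8% upward. Whether TFEB or TFE3 had a part in these changes was not tested. The galactosidase gene GLA averaged 54.2 TPM with As2S2, 90.1 TPM with PMA and 26.9 TPM in control, and was lower with As2S2 than with PMA by a log2 difference of -1.09 ± 0.07 (adjusted p = 8.44e-10). Over the pathway genes that met the naming rule 60 pairs of gene and comparison passed. On TPM with no further scaling 49 kept their call, 8 lost it and 3 changed direction without passing (ATG101 and RAB7A with PMA, and RAB7A between As2S2 and PMA).

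Likeness was measured as the root mean square difference of log2 CPM, centred on each gene's mean of the 9 libraries, among 9711 genes whose mean reached 5 CPM, and is a description that says nothing of shared control. Nearest to SQSTM1 were the tubulin gene TUBB2A (0.074) and the ferritin light chain gene FTL (0.088). ATG2A was the third nearest to ULK1 (0.099). Nearest to TFE3 was MTMR14 (0.072), a phosphoinositide phosphatase, and nearest to NBR1 was SHQ1 (0.038). Among the 10 genes themselves OPTN and GABARAPL1 were closest (0.139), followed by ULK1 and TFEB (0.147).

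In the authors' deposited table for As2S2 over control, 8 of the 10 genes had an adjusted p under 0.05, 7 of them upward; WIPI1 (log2 fold change 0.31, adjusted p = 0.0966) and MAP1LC3B (0.16, 0.156) did not. In the authors' deposited table for PMA over control 8 had one, 7 upward, and NBR1 (0.08, 0.46) and TFEB (0.32, 0.332) did not.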

How the data were processed

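Poly(A)-selected RNA of 9 MEG-01 libraries was sequenced, 3 each for As2S2, PMA and control, grouped by the sample titles. The NEBNext Ultra II library kit is named per the labels' protocols, and fastp 0.22.0 and DESeq2 are the tools named per the submitters' processing notes. Those notes name zebrafish builds, and the organism label of 1 control library is not human, but the gene IDs in the tables are human Ensembl IDs. No source used here gives the aligner, the counting tool or its strand setting, or the annotation. For each agent against control the authors deposited estimated counts (expected counts, not normalized) and TPM per library, with group means, and their own ratio (fold change), log2 fold change, p-value and adjusted p-value, per the file headers. The control columns of the tables differed in 0 values.

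Counts were rounded to whole numbers, filtered by filterByExpr, scaled by TMM and tested in 1 fit of all 9 libraries with edgeR 4.0.16 (R 4.3.3, quasi-likelihood test), adjusted over 14592 genes by Benjamini and Hochberg at a threshold of 0.05. The error given with a log2 fold change is its SE, and with a share or ratio the SD. The statistics were tested on simulated data. In these, few genes changed, in the As2S2 group only, with the same spread for every gene and no outlying library. The simulation therefore does not cover the wide changes and the outlying libraries of the real data. The 10 genes and all lists were chosen with earlier results of these data known. From each pathway list the text could name, per comparison, up to 2 genes past the threshold, those with the lowest adjusted p. Outside this rule it gives values of SNAP29, YKT6 and PLEKHM1 with PMA, MITF with As2S2, and CALCOCO2. Genes that were not tested, and genes that make up a family or list, are also named. The alternatives were other scalings, filters and thresholds, DESeq2 1.42.0, limma-voom, TPM in place of counts (log2 of TPM plus 1, limma 3.58.1), a replicate block, a fit of only the groups compared and omitted libraries. TMM-scaled TPM was added after seeing the data. Some genes that met the naming rules are not reported here.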

Additional observations from a re-analysis of the deposited data

How the results depend on the processing

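For counts of genes past the threshold, 187 values under alternatives stayed within 1.5 times the reported count and 11 did not. With an absolute log2 fold change of at least 1 also required, 2, 2 and 0 of the 10 genes, 4, 15 and 11 pathway genes and 1127, 3060 and 3016 of all genes passed for As2S2 against control, PMA against control and As2S2 against PMA, since fewer genes can pass. Between As2S2 and PMA, 8 of the 10 genes passed on log2(TPM + 1) and 7 without both control replicate 2 and As2S2 replicate 1, against 4. These settings also changed the calls over all genes, as given above, and the cause was not tested. Leaving out 1 library at a time gave 8 to 10, 7 to 8 and 4 to 5 of the 10 genes, 42 to 51, 61 to 71 and 57 to 69 pathway genes, and 4729 to 6320, 8282 to 9495 and 8159 to 9568 of all genes in the same comparisons. For log2 fold changes of the 10 genes, 589 values kept direction and side of the threshold, 15 passed it newly, 15 no longer passed and 11 changed sign. On log2(TPM + 1) the sign changed with PMA for NBR1 (-0.36), MAP1LC3B (-0.20) and TFEB (-0.10), and between As2S2 and PMA for MAP1LC3B (0.24) and GABARAP (0.24); these TPM are not centred on the typical gene. On TMM-scaled TPM, OPTN was at -0.04 between As2S2 and PMA. GABARAPL1, at 0.00 between As2S2 and PMA, was at -0.00 with RLE scaling and with a stricter filter on low counts, -0.05 with upper-quartile scaling, and -0.01 to 0.03 with 1 library left out.

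For same-numbered libraries, deviations from the group means correlated at -0.073 to 0.149 between As2S2 and control and -0.00787 to 0.0393 between PMA and control. Between As2S2 and PMA the correlations were -0.0691 to 0.00228. With 3 libraries per group, such values cannot settle whether the samples were paired. With a replicate block, 9, 8 and 4 of the 10 genes, 47, 68 and 63 pathway genes and 5972, 9180 and 9044 of all genes passed. Depth limits TFEB most, with 64 to 115 counts per library.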
